A study of Mus musculus with 16 samples.

Results

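Transcript levels of 10 genes that handle electrophiles and peroxides were followed in mouse ovary during and after testosterone. The genes were 7 cytosolic glutathione transferases (Gsta2, Gsta3 and Gsta4 of the alpha class, Gstm1 and Gstm2 of the mu class, Gstt1 of the theta class and Gstp1 of the pi class), Gpx3, Hmox1 and Nqo1. They were found by symbol among the 55426 genes of the deposited tables, and all 10 passed the filter on low counts that 18833 genes passed. Gsta2 was selected on the size of its change in the libraries taken on testosterone, and the others were chosen by family or function with results of these data known. Their values in that contrast are therefore given as a description with no p-value.

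The 16 libraries came from female C57BL/6NHsd mice, an inbred strain, with 1 ovary per mouse and 4 mice per group. On T mice received 0.9 mg testosterone enanthate, a long-acting ester, under the skin each week for 6 weeks and were killed at 16 weeks of age. Post T mice had the same 6 weeks of injections, then a washout, and were killed, aged 24 to 28 weeks, after 4 resumed estrous cycles. Age-matched mice given sesame oil, the vehicle, served as controls for On T and, separately, for Post T, and all 4 groups were collected in diestrus. The whole ovary was dissected from fat and poly(A) RNA was sequenced, so each value averages over follicles, corpora lutea, stroma, vessels and immune cells, and fewer cells of a type cannot be told apart from less RNA per cell.

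Library totals ran from 26598055 to 52659637 expected counts, and 3 counts came to 0.057 to 0.113 CPM (counts scaled to a common library size, here with TMM). The 4 groups separated on the first 2 principal components, which held 33.9% and 15.8% of the variance, and On T replicate 2 lay apart from its group on the second (18.1 against 36.8 to 47.6). Summed CPM of 10 granulosa, 7 theca and interstitial, 8 oocyte and 10 luteal markers was at least 3682, 7140, 208 and 4975 in every library. None of these markers was at 0 in all 16 libraries. The 12 macrophage markers summed to 280.2 to 408 CPM in On T controls, 474 to 877 in On T, 413 to 945 in Post T controls and 3092 to 4756 in Post T. The 10 luteal markers summed to 12134 to 14155, 4975 to 8917, 9998 to 20819 and 5937 to 10426 CPM in the same order. No macrophage or luteal marker was at 0 in all 16 libraries, and the part these cells have in the results was not tested.

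Glutathione transferases join reduced glutathione to reactive electrophiles such as lipid aldehydes and quinones, and the classes differ in the substrates they take. Glutathione peroxidases spend glutathione to reduce hydrogen peroxide and lipid peroxides. Many genes of both kinds, with Hmox1 and Nqo1, are switched on by the transcription factor NRF2 (gene Nfe2l2) at antioxidant response elements when its inhibitor KEAP1 is modified. In the ovary, steroid synthesis by mitochondrial and microsomal cytochromes P450 is a known source of reactive oxygen.

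The sequence just before the RefSeq transcription start is shown for the members whose levels moved furthest and in different ways: Gsta2, higher in both treated groups, Gsta3, Gstm1 and Gstm2, higher in Post T, and Gpx3, lower in both. The sequences are RefSeq's on GRCm38.p6, written 5′ to 3′ on the strand of the gene and limited to bases outside annotated exons, so those of Gsta2, Gstm2 and Gpx3 end 23, 33 and 82 bases before that start. For Gsta2 and Gpx3 the RefSeq start lies inside the longer gene span of the GENCODE annotation given below, so the annotations place the start differently. Gstm1 has 2 RefSeq starts, and the sequence before the outer start is printed. They cover chr9:78347169-78347395 on the minus strand for Gsta2, chr1:21240335-21240584 on the plus strand for Gsta3, chr3:108017974-108018223 on the minus strand for Gstm1, chr3:107986454-107986670 on the minus strand for Gstm2 and chr11:54902604-54902771 on the plus strand for Gpx3. Capitals mark matches to the motifs named below.
Gsta2: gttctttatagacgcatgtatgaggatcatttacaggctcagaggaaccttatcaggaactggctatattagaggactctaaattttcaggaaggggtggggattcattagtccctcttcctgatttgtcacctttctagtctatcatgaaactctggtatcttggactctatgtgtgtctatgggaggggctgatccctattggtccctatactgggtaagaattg
Gsta3: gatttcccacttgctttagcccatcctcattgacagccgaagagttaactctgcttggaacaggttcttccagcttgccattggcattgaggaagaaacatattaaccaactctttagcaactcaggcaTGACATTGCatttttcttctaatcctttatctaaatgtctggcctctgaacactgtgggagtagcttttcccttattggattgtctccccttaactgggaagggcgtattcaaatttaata
Gstm1: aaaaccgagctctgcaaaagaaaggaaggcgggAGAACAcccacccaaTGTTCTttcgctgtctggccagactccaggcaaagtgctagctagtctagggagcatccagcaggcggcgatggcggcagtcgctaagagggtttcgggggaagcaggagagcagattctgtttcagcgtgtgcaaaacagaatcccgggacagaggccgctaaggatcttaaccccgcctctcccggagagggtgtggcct
Gstm2: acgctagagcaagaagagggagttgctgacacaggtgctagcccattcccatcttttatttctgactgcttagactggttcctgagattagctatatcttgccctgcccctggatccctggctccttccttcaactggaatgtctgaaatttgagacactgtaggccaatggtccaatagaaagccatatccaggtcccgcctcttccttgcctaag
Gpx3: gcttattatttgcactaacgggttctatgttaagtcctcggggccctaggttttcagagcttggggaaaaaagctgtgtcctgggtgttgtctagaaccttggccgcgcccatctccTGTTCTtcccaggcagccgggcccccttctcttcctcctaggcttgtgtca
The 250 bases before the start of 8 members were searched on both strands for TGACNNNGC (the antioxidant response core), TGACTCA (AP-1), AGAACA (a half-site of androgen and glucocorticoid receptors) and AAGGTCA (NR5A receptors). Of 32851 mouse promoters, 10.2% held the first, 4.46% the second, 16.1% the third and 4.08% the last. Gsta3 held the antioxidant core as TGACATTGC, 121 bases before its start. Gstm1 held the half-site on both strands, 217 and 202 bases before its outer start, and none of the letters searched before its inner start, chr3:108017819-108018068, where 155 of the bases are exonic. Gpx3 held the half-site once, 133 bases before. Gstp1 held AP-1 letters 74 bases before its start. None of the letters searched were in this window of Gsta2, Gstm2, Gstt1 or Nqo1. Gsta4 and Hmox1 had no entry.

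The transferases sit in family clusters on GRCm38. Gsta2 lies at chr9:78331018-78355788 and Gsta4 at chr9:78182774-78209349, with Gsta1 at chr9:78230656-78242684 between them. Gsta3 lies apart at chr1:21240589-21265661. Gstm1 at chr3:108012255-108017973 and Gstm2 at chr3:107981702-107986453 lie in the mu-class cluster. Gstt1 lies at chr10:75783813-75798584, Gstp1 at chr19:4035407-4037985, Gpx3 at chr11:54902453-54910377, Hmox1 at chr8:75093621-75100589 and Nqo1 at chr8:107388225-107403206. No exon of a member overlaps an exon of another gene on either strand. The coding sequences of Gstm1 and Gstm2 are 76.8% identical, those of Gsta2 and Gsta3 75.3%, and those of Gsta2 and Gsta4 66.6%. Of windows of 150 bases along the transcripts of Gsta2, 19.6% are found unchanged in Gsta1 (97.6% coding identity) or the predicted genes Gm3776 and Gm10639, so the assignment of some reads between these copies is uncertain. Gsta1 itself averaged 0.0406 to 0.294 CPM in the 4 groups. Gstp1 shares 17.6% of its windows with Gstp2 (98.1% coding identity) and the pseudogene Gstp-ps, while the other 8 members share none.

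**Figure D1:**
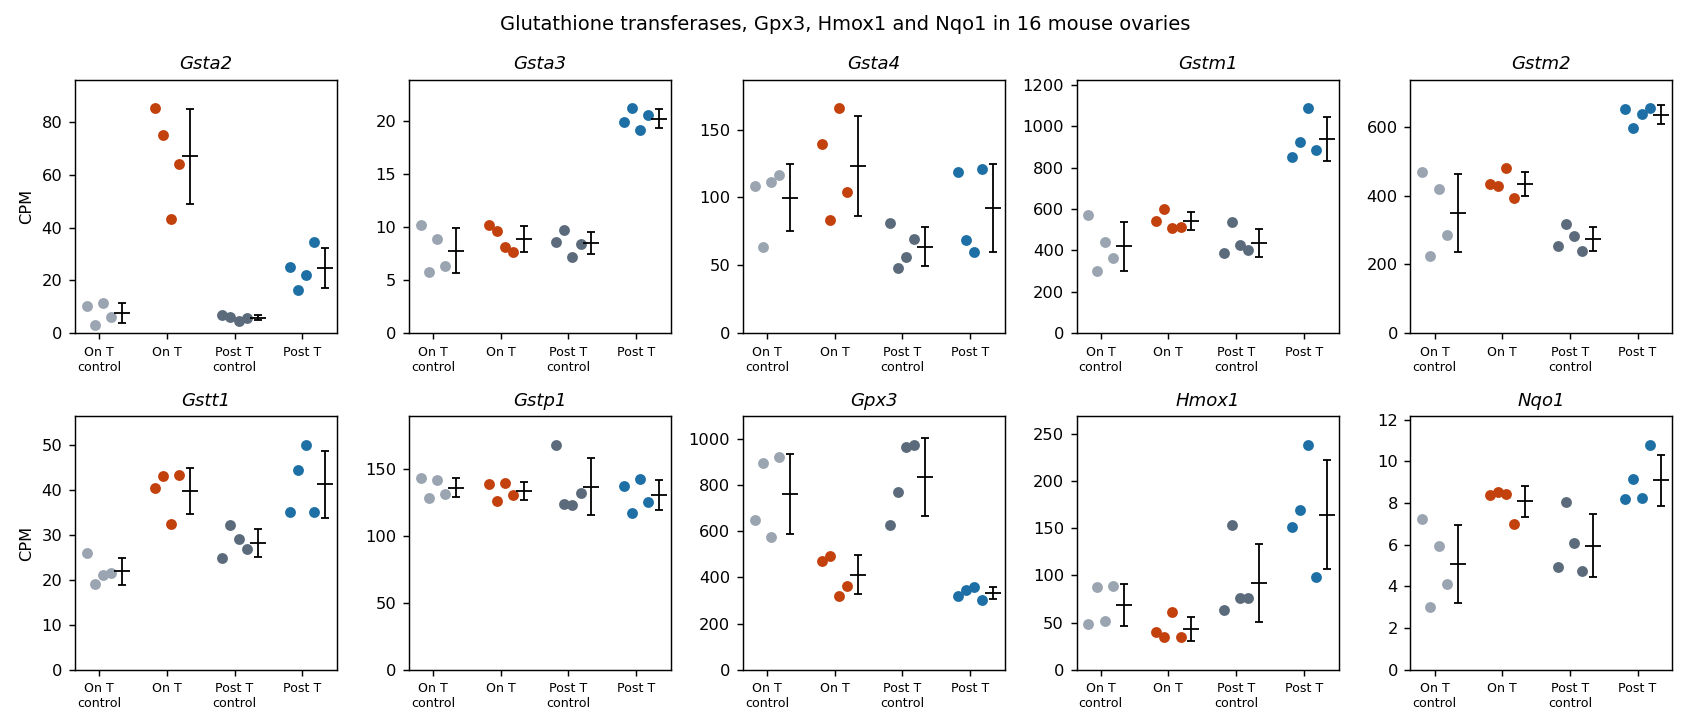
CPM (vertical axis, from 0) of the 10 genes in the 16 ovaries. Each point is a library, and the bars beside the points are the group mean and SD of 4. Gsta2 stands high in On T and Post T, Gsta3, Gstm1 and Gstm2 stand high in Post T, Gpx3 is low in both treated groups, and Gstp1 keeps a mean of 131 to 137 CPM in every group.

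Gsta2, an alpha-class transferase, had the largest log2 values of the 10 genes in both contrasts. The On T controls held 10.3, 3.09, 11.3 and 6.06 CPM in replicates 1 to 4, and the On T libraries 85.4, 75.1, 43.2 and 64.2. The lowest On T library lay well above the highest control, and the mean was 8.63-fold higher by the fit (log2 3.11, SE 0.33). The Post T controls held 6.98, 6.09, 4.62 and 5.80 CPM and the Post T libraries 24.9, 16.5, 22.1 and 34.7. Gsta2 thus rose after testosterone as well, again with no overlap (log2 2.07, SE 0.33, edgeR adjusted p = 0.000308). The Post T effect minus the On T effect was -1.04 (SE 0.45, log2), a difference that was not called. Gsta2 was chosen on the On T values that enter this difference, so it is given as a description.

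Gsta3, an alpha-class transferase whose human counterpart isomerises steroid precursors, showed another pattern. The On T controls held 10.2, 5.70, 8.82 and 6.35 CPM and the On T libraries 10.2, 9.57, 8.12 and 7.60, so these groups overlapped (log2 0.19, SE 0.16). The Post T controls held 8.61, 9.68, 7.20 and 8.43 CPM, and the Post T libraries 19.9, 21.2, 19.1 and 20.5. Every Post T library was above every library of the other 3 groups, and Gsta3 rose 2.38-fold after testosterone (log2 1.25, SE 0.16, edgeR adjusted p = 4.31e-05). The Post T effect exceeded the On T effect by 1.06 (SE 0.23, log2), and Gsta3 was the member of the 10 whose difference of effects was called. On T results were known when the members were chosen, so this difference is given as a description.

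Gsta4, the alpha-class enzyme that prefers the lipid aldehyde hydroxynonenal, varied widely within groups. It ranged from 63.2 to 116 CPM in On T controls, 83.6 to 166 in On T, 48.2 to 81.2 in Post T controls and 59.8 to 121 in Post T. All groups overlapped their controls, and the Post T change of 0.53 (SE 0.26, log2) was not called, with an edgeR adjusted p of 0.246.

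The mu-class pair, general detoxifying transferases, were the most abundant cytosolic transferases in TPM, a level scaled for gene length, although the microsomal Mgst1 overlapped them in both control groups. Gstm1 held 573, 298, 441 and 363 CPM in On T controls and 543, 599.9, 508 and 511 in On T, with overlap (log2 0.37, SE 0.16). It held 387, 535, 424 and 400.0 CPM in Post T controls and 849, 923, 1088 and 884 in Post T, a rise of 2.14-fold with no overlap (log2 1.10, SE 0.16, edgeR adjusted p = 0.000167). Gstm2 held 469, 224, 419 and 285 CPM in On T controls and 433, 427, 479 and 394 in On T, with overlap (log2 0.31, SE 0.17). It held 254, 318.5, 283 and 238 CPM in Post T controls and 652, 596, 639 and 655 in Post T, a rise of 2.32-fold (log2 1.22, SE 0.18, edgeR adjusted p = 0.000118). The Post T effects exceeded the On T effects by 0.73 (SE 0.23) for Gstm1 and 0.91 (SE 0.24) for Gstm2 on the log2 scale, and neither difference was called. Without On T control replicate 2 both were, at 0.88 and 1.08. The difference for Gstm2 was also called without On T control replicate 4 or Post T control replicate 2, at 1.00 and 0.99, by DESeq2, at 0.89, and by edgeR with no filter or a filter of 1 CPM in 4 libraries, at 0.92 each. Over all 23 alternatives the difference ran from 0.54 to 0.88 for Gstm1 and from 0.73 to 1.08 for Gstm2, with 22 and 17 of them uncalled. These differences hold On T values known when the members were chosen, so their calls are no test. The On T value of Gstm1 ran from 0.24 to 0.56 over 16 alternatives. The 1 alternative that called it, without On T control replicate 1, is no test, as On T results were known when the members were chosen.

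Gstt1, a theta-class enzyme that acts on small halogenated compounds, was higher in both treated groups. The On T controls held 26.0, 19.0, 21 and 21.5 CPM and the On T libraries 40.4, 43.1, 32.3 and 43.2, with no overlap (log2 0.86, SE 0.14). The Post T controls held 24.8, 32.1, 29.1 and 26.9 CPM and the Post T libraries 35.1, 44.4, 50 and 35.1, also with no overlap (log2 0.54, SE 0.13, edgeR adjusted p = 0.0123). Gstp1, the pi-class enzyme, lay between 118 and 169 CPM in all 16 libraries. Its Post T change was -0.07 (log2, SE 0.10), with an edgeR adjusted p of 0.768, and its On T value was -0.03 (SE 0.10).

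Gpx3, the secreted glutathione peroxidase of plasma, moved the other way. The On T controls held 649, 894, 575 and 919 CPM and the On T libraries 469, 493, 317 and 364, so every On T library lay below every control (log2 -0.89, SE 0.18). The Post T controls held 625, 771, 964 and 974 CPM and the Post T libraries 321, 344, 358 and 301. Gpx3 fell 2.52-fold after testosterone (log2 -1.33, SE 0.18, edgeR adjusted p = 6.32e-05), with a narrow Post T spread of 331 ± 25.4 CPM (SD, n = 4) against 834 ± 167 in its controls. The 6 luteal markers called lower in On T and the 5 in Post T fell beside it, and the part of luteal cells in the fall of Gpx3 was not tested.

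Hmox1, the inducible enzyme that opens the heme ring, stood on opposite sides of its controls in the 2 treated groups, with overlap in each. It held 48.3, 88.0, 51.3 and 88.6 CPM in On T controls and 40.3, 34.6, 61.3 and 35.0 in On T (log2 -0.69, SE 0.31). It held 63.3, 153, 75.6 and 75.9 CPM in Post T controls and 152, 169, 239 and 98.2 in Post T (log2 0.84, SE 0.31, edgeR adjusted p = 0.0971). Post T control replicate 2 lay at the level of the Post T libraries. Without it the Post T change was 1.21 with an edgeR adjusted p of 0.0103, and without Post T replicate 4 it was 1.04 with 0.0402. DESeq2 called it too, at 0.83 with an adjusted p of 0.0448. The other 13 of 16 alternatives left it uncalled, with values down to 0.60 and adjusted p up to 0.311. The effects differed by 1.53 (SE 0.44), not called. Of 23 alternatives 5 called it, at 1.51 to 1.89, and 18 did not, with values down to 1.29. Those calls are no test, as the difference holds On T values known when the members were chosen. Nqo1, which reduces quinones, was the least abundant member of every group in mean TPM. It held 2.99 to 7.21 CPM in On T controls, 6.99 to 8.52 in On T, 4.75 to 8.03 in Post T controls and 8.19 to 10.8 in Post T. The Post T libraries did not overlap their controls, yet the change of 0.61 (SE 0.23, log2) did not pass, with an edgeR adjusted p of 0.0954. Without Post T control replicate 2 it was 0.81 with 0.0342. The other 15 of 16 alternatives left it uncalled, with values down to 0.52 and adjusted p up to 0.251. The On T value was 0.66 (SE 0.23), and ran from 0.49 to 0.88 over 16 alternatives. DESeq2 and the fit without On T control replicate 1 called it. Those 2 calls are no test, as On T results were known when the members were chosen.

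**Figure D2:**
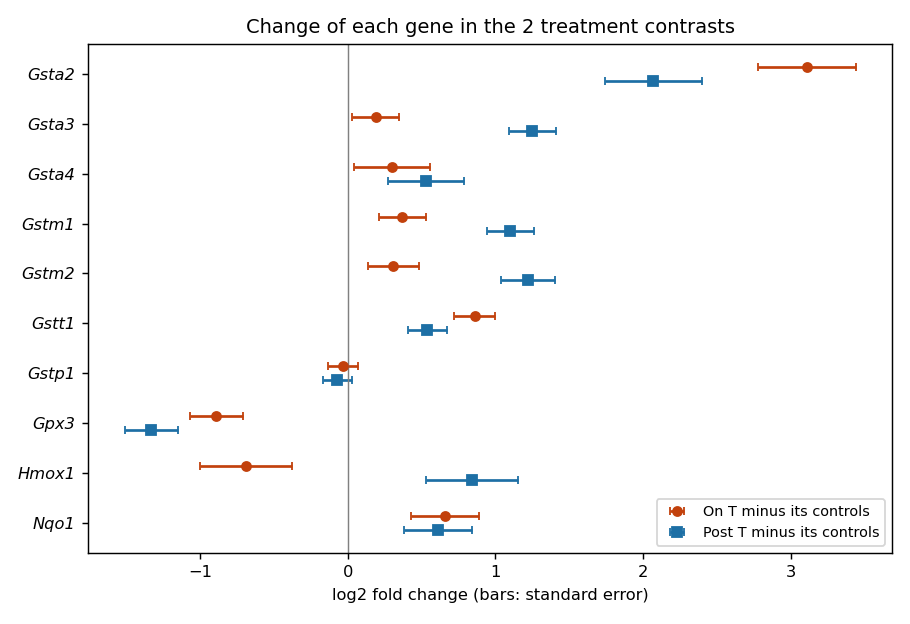
Log2 fold change (horizontal axis) of each of the 10 genes in On T minus its controls (circles) and Post T minus its controls (squares), with bars of 1 standard error. Gsta2 has the largest values, 3.11 and 2.07, Gpx3 is negative in both contrasts at -0.89 and -1.33, and Hmox1 changes side, from -0.69 to 0.84.

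Counted together, 3 of the 10 members were called in On T minus its controls, Gsta2 and Gstt1 higher and Gpx3 lower, where 9.27% of all genes tested were called (4.24% higher and 5.03% lower). That contrast chose Gsta2, so nothing is read from the count. In Post T minus its controls, which shares no library with the other contrast, 5 members rose (Gsta2, Gsta3, Gstm1, Gstm2 and Gstt1), Gpx3 fell, and 4 did not pass, where 12.3% of all genes were called (7.49% higher and 4.81% lower). Libraries of the groups did not overlap for 3 members in On T, where that held for 15.1% of genes, and for 7 in Post T, where it held for 16.5%. The difference of the effects was called for 1 of 10, where 3.25% of genes were called (2.93% higher and 0.324% lower). The median log2 change of the 10 was 0.31 in On T and 0.73 in Post T, beside -0.01 for all genes in each. Since the members were grouped with results known, these counts describe them and are no independent evidence about the group.

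Control mice of the 2 ages, given vehicle alone, gave the background level. Of the 10 members 0 were called between the older and the younger controls, where edgeR called 0.0% of all genes. At an unadjusted p under 0.05 there were 2 members and 1892 of all genes, and DESeq2 called 0 members and 173 of all genes. Gsta4 had the lowest older value, at -0.65 (SE 0.26) on the log2 scale with an edgeR adjusted p of 0.414, and Hmox1 the highest, at 0.42 (SE 0.31) with 0.694. Age and cohort cannot be told apart there.

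Within the On T controls 1 library was low for most members. Replicate 2 held the lowest value of 8 of the 10 members, all 7 transferases and Nqo1, and replicate 1 the highest of 6, while Gpx3 and Hmox1 were high in replicates 2 and 4. Leaving out replicate 2 lowered the log2 values of On T minus its controls to 2.86 for Gsta2, 0.24 for Gstm1, 0.15 for Gstm2 and 0.81 for Gstt1, and gave -0.79 for Gpx3. No other group had a library that was lowest for more than 4 members.

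Compared per length, in TPM, which scales for gene length as well as library size, the order of the members changed with treatment. In both control groups Gpx3 stood first, at 753 ± 193 and 824 ± 213 TPM (SD, n = 4) in the younger and older mice, and overlapped the mu-class pair behind it. In On T, Gstm2 (712 ± 65.5) and Gstm1 (697 ± 69.1) overlapped each other and stood above Gpx3 (405 ± 86.3) with no overlap. In Post T the order was Gstm1 (1163 ± 74.9), Gstm2 (1008 ± 64.7) and Gpx3 (315 ± 16.5 TPM), with no overlap between Gstm1 and Gstm2 or between Gstm2 and Gpx3. The ratio of Gpx3 to Gstm1 in TPM was 1.52 ± 0.698 in On T controls, 0.577 ± 0.0834 in On T, 1.48 ± 0.369 in Post T controls and 0.271 ± 0.0186 in Post T. Gsta2 moved from the eighth place in both control groups, at 17.3 ± 8.16 and 13.4 ± 1.75 TPM beside Gsta3, to the sixth in On T, at 154 ± 40.1, where it overlapped Gsta4 (225 ± 66.9). In Post T it was eighth again, at 54.9 ± 18.0 TPM, above Gsta3 (30.4 ± 2.85) with no overlap. Nqo1 was last in every group, at 5.12 to 8.96 TPM on average.

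The 23 cytosolic transferase genes together gave 1934 ± 365 TPM in On T controls, 2477 ± 122 in On T, 1773 ± 159 in Post T controls and 3066 ± 103 in Post T (SD, n = 4). On T overlapped its controls (2298 to 2575 against 1492 to 2323), while Post T lay above its controls (2952 to 3182 against 1623 to 1997). The mu class made up 63.6 ± 4.41%, 63.0 ± 1.97%, 63.8 ± 4.36% and 75.7 ± 1.68% of this sum in the same order. The alpha class took 11 ± 1.95% in On T controls and 15.8 ± 1.89% in On T, but 8.10 ± 1.52% in Post T controls and 8.08 ± 2.32% in Post T. Its share in On T (13.8 to 18.2%) did not overlap that in its controls (9.10 to 13.5%), and Gsta2, the gene chosen on its rise, is part of it. In TPM the alpha class summed to 142 ± 17.5 in Post T controls and 249.5 ± 79.2 in Post T, with no overlap (125 to 160 against 170 to 331). The share of Gstp1 was 16.9 ± 3.04%, 12.7 ± 0.435%, 18.0 ± 2.38% and 9.65 ± 0.521%.

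**Figure D3:**
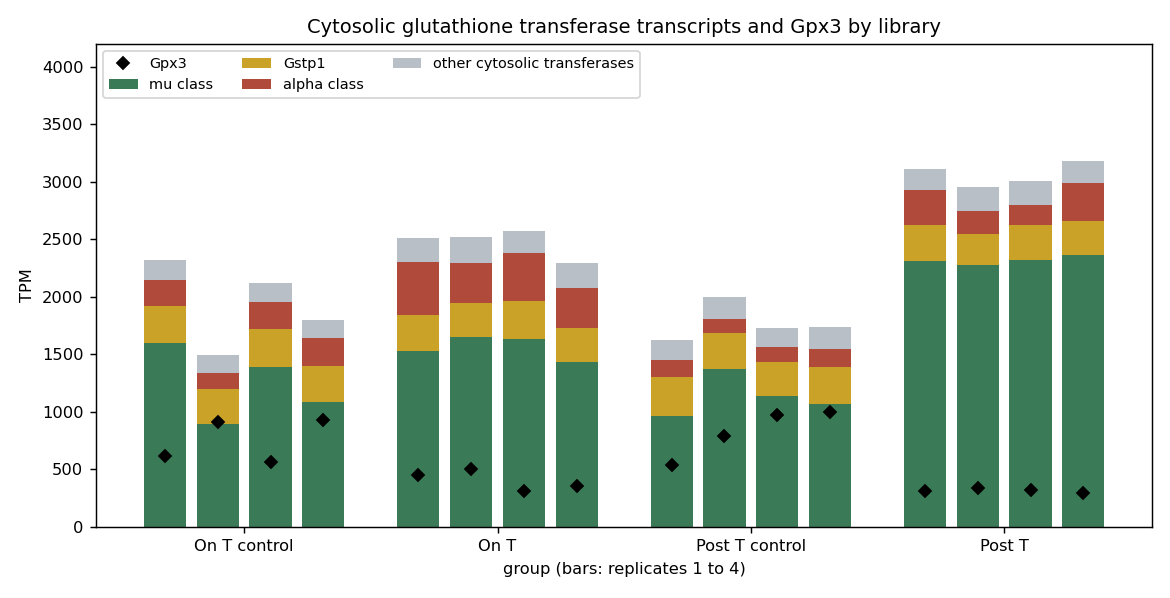
Stacked bars give the TPM (vertical axis) of mu-class, Gstp1, alpha-class and other cytosolic transferases in each of the 16 libraries, and diamonds give Gpx3. The Post T bars reach 2952 to 3182 TPM and are mostly mu class, and the Gpx3 diamonds sit at 294 to 335 TPM in Post T and 536 to 1002 in its controls.

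Other genes of the pathway were taken from 8 lists chosen by function, with earlier results of these data known, and some lists share genes. Most genes named from them were picked by p. Their p-values, On T ones included, are adjusted over all genes but are no independent evidence about the lists. Of the 111 distinct genes of the lists 105 were tested. On testosterone 8 rose and 5 fell, where 4.24% of all genes tested were called higher and 5.03% lower. After it 22 rose and 3 fell, where 7.49% of all genes were higher and 4.81% lower. For 12 the Post T log2 change, taken with its sign, was called above the On T one, and for 0 below it. Of all genes 2.93% were above and 0.324% below. These shares also stand beside the counts of each list that follows. Between the older and younger controls edgeR called 0, with 18 at an unadjusted p under 0.05, and DESeq2 called 1.

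Among 18 other transferases tested, 2 rose and 1 fell in On T, and 3 rose and 1 fell in Post T. Mgst2, a microsomal transferase that also joins glutathione to a leukotriene, was the gene of this list with the largest change in either contrast. It held 18.1, 22.1, 14.5 and 17.9 CPM in On T controls and 3.73, 2.88, 1.88 and 2.37 in On T (log2 -2.73, SE 0.26, edgeR adjusted p = 4.81e-06). In Post T controls it held 50.8, 24.4, 22.5 and 29.3 CPM and in Post T 1.82, 2.38, 2.38 and 2.62 (log2 -3.78, SE 0.27, edgeR adjusted p = 1.34e-07), so it fell 13.8-fold. Mgst1 and Mgst3, also microsomal, were not called in either contrast, with log2 values between -0.09 and 0.21.

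Hpgds, the sigma-class enzyme that makes prostaglandin D, went the other way. It averaged 3.91 ± 0.313 CPM in On T controls and 7.05 ± 2.47 in On T (log2 0.85, SE 0.19, edgeR adjusted p = 0.009), and 6.06 ± 0.455 in Post T controls and 24.4 ± 3.17 in Post T (log2 2.01, SE 0.19, adjusted p = 1.52e-06). Its On T call was lost in the fits on log2 TPM and in the fit of the 8 libraries compared, with adjusted p up to 0.0974. Gstm6, a mu-class neighbour of Gstm1 and Gstm2, rose in Post T from 7.46 ± 1.42 to 17.0 ± 1.90 CPM (a log2 change of 1.19, SE 0.19, edgeR adjusted p = 0.00032) and was -0.28 (SE 0.19) in On T. Of the theta class beside Gstt1, Gstt3 rose in Post T from 5.29 ± 0.319 to 8.06 ± 0.858 CPM (a log2 change of 0.61, edgeR adjusted p = 0.0128), although 13.6% of its exon bases lie in another gene of the same strand, and the call was lost with limma on log2(TPM + 0.1), at 0.54 with an adjusted p of 0.0547. Gstt2 rose in On T from 10.2 ± 1.66 to 16.1 ± 2.37 CPM (a log2 change of 0.65, edgeR adjusted p = 0.024), a call lost without On T replicate 1, at 0.58, or 4, at 0.62, or without On T control replicate 2, at 0.56, or 4, at 0.65. Gsta1, Gm3776 and Gm10639, the near copies of Gsta2, stayed near the floor of detection. Gsta1 averaged 0.294 CPM in On T controls and 0.0406 in On T, with an edgeR adjusted p of 0.165, and Gm3776 and Gm10639 reached at most 0.307 CPM in any library and were not tested.

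Of 5 other glutathione peroxidases tested, edgeR and DESeq2 called 0 in either contrast, with 1 in each at an unadjusted p under 0.05. Without On T replicate 2 in the first contrast, or Post T control replicate 1 in the second, edgeR called 1. Gpx1, the cytosolic enzyme, averaged 224 ± 16.5 CPM in On T controls and 188 ± 12.6 in On T, and 264 ± 52.9 in Post T controls and 330.2 ± 27.2 in Post T. Its Post T change of 0.33 (SE 0.12, log2) had an edgeR adjusted p of 0.0821. Gpx4, which protects membranes, was near 0 in both contrasts at -0.03 and -0.05 (SE 0.17 each).

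Among 18 genes of glutathione synthesis and recycling, 1 rose and 2 fell in On T, and 3 rose and 1 fell in Post T. Gss, which adds glycine in the last step of glutathione synthesis, fell in both. It held 20.8, 29.4, 25.6 and 27.3 CPM in On T controls and 15.3, 11.9, 14.7 and 14.1 in On T (log2 -0.88, SE 0.12, edgeR adjusted p = 0.000277), and 24.8 ± 3.42 in Post T controls and 14.7 ± 1.27 in Post T (log2 -0.75, SE 0.12, adjusted p = 0.000474). Gclc and Gclm, the subunits of the rate-limiting enzyme before it, were not called, with log2 values of 0.02 and -0.12 in On T and 0.09 and 0.12 in Post T.

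Slc7a11, the transporter that brings in cystine for glutathione, averaged 7.40 ± 0.591 CPM in On T controls and 7.17 ± 1.24 in On T, and rose in Post T, from 6.78 ± 0.860 in its controls to 20.5 ± 3.40 (a log2 change of 1.59, SE 0.15, edgeR adjusted p = 1.45e-06). Its effects differed by 1.64 (SE 0.21, edgeR adjusted p = 0.000657). On the log2(TPM + 1) scale, the Post T change was 0.97. Ggct, which breaks down gamma-glutamyl peptides, rose in Post T (log2 0.74, SE 0.15, edgeR adjusted p = 0.00306). Dpep1, a dipeptidase that splits cysteinylglycine, rose in On T from 9.21 ± 1.76 to 26.2 ± 9.63 CPM (a log2 change of 1.5, SE 0.27, edgeR adjusted p = 0.00168). Dpep2, another membrane dipeptidase, was called lower in On T (log2 -0.87, edgeR adjusted p = 0.0222) and higher in Post T (log2 0.69, edgeR adjusted p = 0.0489), but these calls were lost in 6 and 10 of 16 alternatives. The On T values of those alternatives ran from -0.86 to -0.52, with the highest adjusted p, 0.0879, without On T control replicate 4. The lowest Post T value was 0.52, with an adjusted p of 0.17, without Post T replicate 3.

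**Figure D4:**
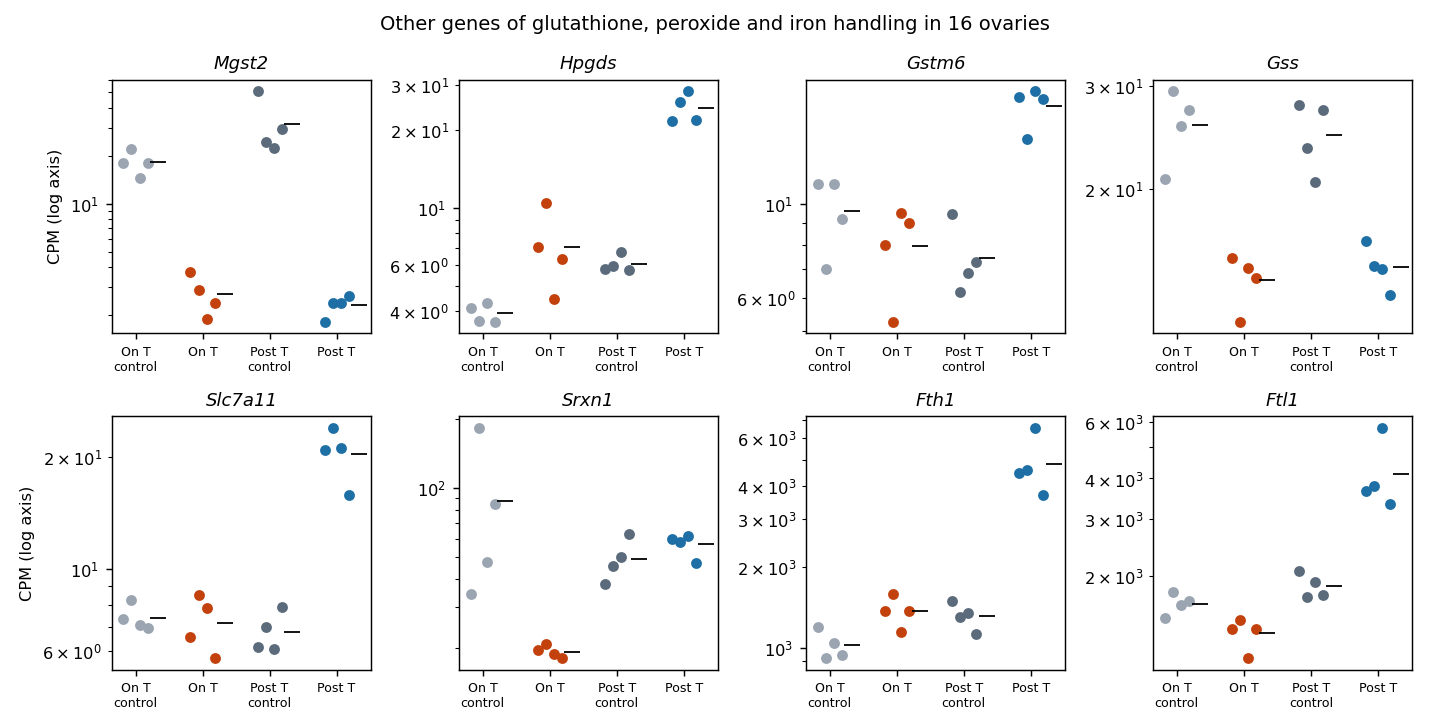
CPM on a log axis of 8 other genes in the 16 ovaries, with a point per library and a dash at the arithmetic group mean. Mgst2 and Gss are low in both treated groups, Srxn1 is low in On T, and Hpgds, Gstm6, Slc7a11, Fth1 and Ftl1 stand highest in Post T.

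Of 17 thioredoxin and peroxiredoxin genes, 1 rose and 1 fell in On T and 2 rose in Post T, where leaving out Post T control replicate 1 or 2 gave 4 calls, as DESeq2 did. Srxn1, sulfiredoxin, which rescues overoxidised peroxiredoxins, held 34.3, 183, 47.3 and 85.4 CPM in On T controls and 19.5, 20.7, 18.8 and 18.0 in On T (log2 -2.18, SE 0.37, edgeR adjusted p = 0.00116). On T control replicate 2 carried part of that size, since without it the log2 value was -1.52, also called. In Post T it was 0.20 (SE 0.35), and the effects differed by 2.39 (SE 0.50, edgeR adjusted p = 0.0133). Msrb3, a methionine sulfoxide reductase, rose in On T (log2 0.71, SE 0.14, edgeR adjusted p = 0.00312). Msrb1, its selenium-dependent relative, rose in Post T (log2 0.88, SE 0.12, adjusted p = 0.000106), as did Txn1, cytosolic thioredoxin (log2 0.66, SE 0.13, adjusted p = 0.00195). Of 5 superoxide dismutase and catalase genes edgeR and DESeq2 called 0 in On T, with 0 at an unadjusted p under 0.05, while Cat, catalase (log2 0.45, SE 0.09, adjusted p = 0.00283), and Sod3, the extracellular dismutase (log2 0.60, SE 0.15, adjusted p = 0.012), rose in Post T.

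Of 10 NRF2 regulators edgeR called 0 in either contrast, with 2 at an unadjusted p under 0.05 in On T and 3 in Post T, and DESeq2 called 1 in each. EdgeR also called 1 without On T replicate 2 or On T control replicate 1 or 3, and without Post T replicate 1 or Post T control replicate 1. Nfe2l2 averaged 125 ± 3.49 CPM in On T controls and 134 ± 14.0 in On T, and 137 ± 12.3 in Post T controls and 163 ± 7.32 in Post T, where its change of 0.25 (SE 0.08, log2) had an edgeR adjusted p of 0.059. Keap1 was 0.01 and 0.07 (SE 0.06 each). Of 24 other NRF2 target genes, 1 rose and 2 fell in On T and 6 rose in Post T, with medians of -0.11 and 0.18 beside -0.01 for all genes. Blvrb, a flavin and biliverdin reductase, rose in On T (log2 0.63, SE 0.13, edgeR adjusted p = 0.0049) and in Post T (log2 0.79, SE 0.13, adjusted p = 0.000363). Me1, the malic enzyme that supplies NADPH, fell in On T from 945 ± 157 to 520.2 ± 118 CPM (a log2 change of -0.86, SE 0.19, edgeR adjusted p = 0.00814).

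The list of heme and iron genes includes the products and partners of the Hmox1 reaction. Of 18 tested, 4 rose in On T, and 10 rose and 1 fell in Post T, with a Post T median of 0.65. Fth1, the ferritin heavy chain, went from 1320 ± 152 CPM in Post T controls to 4821 ± 1213 in Post T (log2 1.87, SE 0.16, edgeR adjusted p = 6.24e-07), and its light chain Ftl1 from 1857 ± 160 to 4131 ± 1087 (log2 1.15, SE 0.15, adjusted p = 3.59e-05). In On T they were 0.41 (SE 0.16) and -0.31 (SE 0.15) and not called, and the effects differed by 1.45 and 1.46 (adjusted p = 0.0013 and 0.00085). Slc11a1, a metal transporter of macrophage phagosomes, rose in both, from 8.60 ± 1.61 to 19.7 ± 4.08 CPM in On T (a log2 change of 1.19, adjusted p = 0.00142) and from 15.7 ± 4.47 to 88.8 ± 15.8 in Post T (log2 2.50, adjusted p = 4.96e-07). Lcn2, which binds iron carriers of bacteria, rose in both as well (log2 2.24 and 1.73, SE 0.38 and 0.37, adjusted p = 0.00121 and 0.00432). Flvcr1, a heme exporter, rose in Post T (log2 0.56, SE 0.08, adjusted p = 7.15e-05). Cp, ceruloplasmin, was called higher in On T (log2 0.88, adjusted p = 0.0238), but the call was lost in 6 of 16 alternatives, with 0.0776 without On T replicate 2, 0.0566 without replicate 4, 0.0638 and 0.0744 without On T control replicates 3 and 4, and 0.238 and 0.236 with limma on log2(TPM + 0.1) and log2(TPM + 1).

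Levels of some macrophage markers moved beside these genes. Of 12 macrophage markers 3 rose in On T (Cd68, Lyz2 and Tyrobp), and the median log2 change of the list was -0.05. In Post T 8 rose, with a median of 1.01, while Adgre1, C1qa, Mrc1 and Cd14 were not called. Of 8 markers of lipid-laden macrophages 6 rose in On T and 8 in Post T. These 8 markers summed to 798 to 1032 CPM in On T controls and 1239 to 1718 in On T. They summed to 1074 to 1570 in Post T controls and 5744 to 8852 in Post T, without overlap in either contrast. In CPM, Post T replicate 3 had the highest sum of both macrophage lists. It also had the highest Gstm1, Gstt1, Gstp1, Gpx3 and Hmox1 of its group and the highest Fth1 and Ftl1. In TPM, the highest Gpx3 of Post T was in replicate 2 and the highest Gstp1 in replicate 1. Replicate 3 was the Post T mouse aged 28 weeks and had the lowest library total of that group, 30359221 expected counts. The same library held the lowest Gsta3 and Gsta4 of Post T, and its Gsta2 and Gstm2 lay between those of the other libraries. The part of these cells in the rise of the transferases, Slc7a11, Hpgds and ferritin was not tested.

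**Figure D5:**
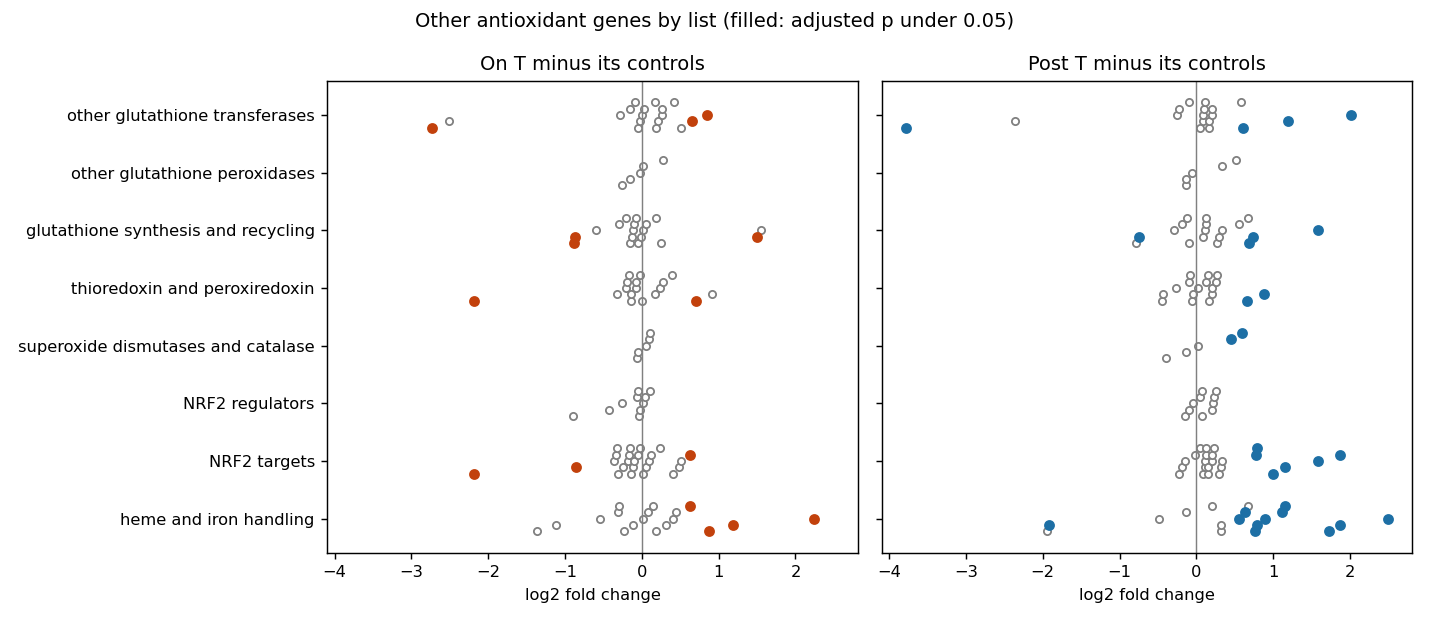
Log2 fold change (horizontal axis) of every tested gene of the 8 lists (rows) in On T minus its controls (left) and Post T minus its controls (right). Filled points passed an adjusted p of 0.05: the 18 iron and heme genes have 4 filled points on the left and 11 on the right, and the 10 NRF2 regulators have 0 on either side.

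For each member the genes with the nearest profile were found from standardised log2 CPM over the 16 libraries, as the smallest mean squared difference, where 0 is the same profile. The nearest to Gsta2 were Aldh6a1 (0.0932), Eci2 (0.0985) and Slc29a1 (0.104). Gsta3 lay nearest to Stx7 (0.0685), Tecpr1 and Lair1, Gstm1 to Aph1c (0.065), Tmem176a and Cdh13, and Gstm2 to Tulp2 (0.048), Oca2 and Rabep2. Gstt1 lay nearest to Dio3 (0.0734), Rnf130 and Rarres2, and Gpx3 to Kcnq3 (0.0619), Pdzrn4 and Sema3d. The values of the nearest gene were larger for Gstp1 (Atp5d, 0.0935), Gsta4 (Inip, 0.125), Hmox1 (Napsa, 0.166) and Nqo1 (Tcf24, 0.167). The libraries share group, depth and scaling, so these likenesses are descriptions.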

How the data were processed

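RNA was measured in 16 ovary libraries, per the labels' protocols from strand-marking poly(A) kits read at both ends. RSEM 1.3.3, STAR 2.7.8a, cutadapt 2.3, FastQC 0.11.8 and the build GRCm38 appear, unordered, in the submitters' processing notes. Which annotation was used, and whether strand was, is not given in the sources used here. The deposited expected counts are the authors' estimates per gene, not normalised, and were whole numbers in every cell when checked. The authors' deposited TPM values adjust for gene length and library size.

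The tests used edgeR 4.0.16 under R 4.3.3 (filterByExpr, minimum count 10, TMM, quasi-likelihood F test, a mean per group over all 16 libraries, Benjamini-Hochberg over 18833 genes at 0.05). The common biological coefficient of variation was 0.179. CPM is TMM-scaled, and levels are means ± SD of 4 mice. The 3-count floor covers counting error only. Alternatives used DESeq2 1.42.0, limma 3.58.1 on log2(TPM + 1) and log2(TPM + 0.1), other filters and size factors, the libraries compared alone, a replicate block, and leaving out each library. The fit was tested on simulated data.

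The members and gene lists were chosen with earlier results of these data known. All members are named, and from each list the called genes with the 4 smallest p in each treatment contrast. A few other genes of the lists were chosen after their values were seen: Gclc, Gclm, Gpx1, Gpx4, Nfe2l2, Keap1, Mgst1, Mgst3 and Gsta1. Of the identifiers, 99.51% matched GENCODE M21.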

Additional observations from a re-analysis of the deposited data

Results flagged for a closer look

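Of 136 groups of 4 libraries checked, 5 held a library that stood apart by Dixon's test at the 95% level, and chance gives about 1 in 20. Gsta4 was 63.2 CPM in On T control replicate 2 against 109 to 116 in the other 3. Hmox1 was 153 CPM in Post T control replicate 2 against 63.3 to 75.9. Nqo1 was 6.99 CPM in On T replicate 4 against 8.38 to 8.52. Me1 was 1179 CPM in On T control replicate 1 against 853 to 884, and Cp was 38.9 CPM in Post T replicate 2 against 27.7 to 29.4.

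For 12 named genes the Post T log2 change, taken with its sign, was above the On T one by the test of the difference itself. Among them Srxn1 was called lower in On T and was not called in Post T. Dpep2 was called lower in On T and higher in Post T. Earlier results of these data were known when the members and lists were chosen, so the differences are given as descriptions. The differences were 1.06 for Gsta3, 1.16 for Hpgds (edgeR adjusted p = 0.0206), 1.47 for Gstm6 (0.00441), 1.56 for Dpep2 (0.00945), 1.64 for Slc7a11 (0.000657) and 2.39 for Srxn1 (0.0133). They were 0.70 for Msrb1 (0.036), 0.80 for Txn1 (0.0198), 1.45 for Fth1 (0.0013), 1.46 for Ftl1 (0.00085), 1.31 for Slc11a1 (0.016) and 0.47 for Flvcr1 (0.0207). The call for Msrb1 was lost in 12 of 23 alternatives, each leaving out 1 library, with adjusted p up to 0.086. Those for Hpgds, Srxn1 and Flvcr1 were lost without On T replicate 4 (1.12, adjusted p = 0.0543), on log2(TPM + 1) (0.0507), and in 4 alternatives, respectively. Those 4 for Flvcr1 were limma on log2(TPM + 0.1) and log2(TPM + 1) (adjusted p = 0.101 and 0.0997), no filter (0.0645) and leaving out On T control replicate 3 (0.0501).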

How the results depend on the processing

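The calls of Gsta2, Gsta3, Gstm1, Gstm2, Gstt1 and Gpx3 in Post T minus its controls held in all 16 alternatives run, with log2 values of 1.87 to 2.24, 1.13 to 1.33, 1.02 to 1.23, 1.16 to 1.31, 0.44 to 0.64 and -1.43 to -1.23. Over all genes, On T minus its controls gave 1130 calls with limma on log2(TPM + 1) against 1746, and 1081 to 1764 with 1 library left out, with 1094 without On T control replicate 2 and 1081 without replicate 4. Post T gave 1753 to 2294 against 2315, and the difference of effects 453 to 735 against 612, with 999 by DESeq2. In the treatment contrasts DESeq2 called more genes than the main fit, 2346 in On T and 2801 in Post T. The controls gave 0 to 9 with 1 library left out, 173 by DESeq2 and 20 with no filter, against 0. With the replicate block the 4 contrasts gave 1676, 2274, 567 and 0 calls, and of the results on named genes it changed the call of Dpep2 in Post T (adjusted p = 0.0706). Same-numbered libraries correlated at -0.0194, 0.13, 0.0319 and -0.0052 in On T and 0.138, 0.233, 0.0422 and 0.0787 in Post T. On T control replicate 2 and Post T control replicates 1 and 2 correlated best with the treated library of their own number. The other controls did not. So few values cannot settle whether the numbers pair the mice.

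Uncalled values near 0 changed sign with 1 library left out, and ran from -0.05 to 0.00 for Gstp1 in On T, -0.11 to 0.07 in Post T and -0.08 to 0.09 in the difference, from -0.27 to 0.14 for Nqo1 in the difference, from -0.14 to 0.06 for Slc7a11 and from -0.06 to 0.20 for Sod3 in On T, and from -0.33 to 0.02 for Me1 in Post T. The cause was not tested.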

Other observations

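Further genes of the same lists, chosen after their values were seen, changed in Post T and were called in all 16 alternatives. Ephx1, the microsomal epoxide hydrolase, rose from 146 ± 23.7 CPM in controls to 293 ± 54.3 (SD, n = 4), a log2 change of 1.00 (SE 0.23) with an edgeR adjusted p of 0.00675. Slc48a1, which moves heme out of lysosomes, rose from 96.1 ± 12.9 to 163 ± 15.3 CPM, a log2 change of 0.76 (SE 0.11) with an edgeR adjusted p of 0.000103. Blvra, biliverdin reductase, rose from 19.3 ± 4.37 to 29.8 ± 1.40 CPM, a log2 change of 0.63 (SE 0.13) with an edgeR adjusted p of 0.0037.

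Cd163, the macrophage receptor that takes up hemoglobin, was the heme and iron gene called lower in Post T. It held 1.64, 5.90, 7.14 and 2.66 CPM in controls and 0.295, 2.50, 1.02 and 0.835 in Post T, with overlap, a log2 change of -1.92 (SE 0.53) with an edgeR adjusted p of 0.0246. The call was lost with the Post T libraries and their controls fitted alone (adjusted p = 0.0638), without Post T replicate 1, 3 or 4 (0.0692, 0.0686 and 0.0836) and without Post T control replicate 2 or 3 (0.0639 and 0.0952). The summed macrophage markers of those Post T libraries were 3092 to 4756 CPM against 413 to 945 in controls.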
